A study of Mus musculus with 2 samples.

Results

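The mitochondrial ribosomal proteins were followed in the RNA of mouse embryonic stem (ES) cells before and after retinoic acid treatment. The members were all rows of the deposited gene table whose symbol is Mrpl or Mrps followed by a number, with or without a letter, which gave 76 of 34376 genes. By symbol, 47 belong to the large subunit (Mrpl) and 29 to the small subunit (Mrps). Both libraries came from E14 cells of the 129P2/OlaHsd strain at passage 29. The undifferentiated library was made from ES cells kept on mitomycin C treated embryonic fibroblasts in 15% serum with leukaemia inhibitory factor at 1000 u/ml. The differentiated library was made from the same line after 4.5 days without feeder cells in 10% serum with all-trans retinoic acid at 0.1 µM, with no sorting step in the labels. The labels put remaining feeder cells at under 0.25% and dead cells at about 2% in the undifferentiated and 8% in the differentiated harvest. Each condition had 1 library, read on 2 lanes, so no test between the conditions exists. A value printed after ± is a lane SD, which covers sequencing and read assignment only.

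Mitochondria carry their own ribosome, which makes the few proteins that the mitochondrial genome encodes, all of them membrane subunits of the respiratory chain and of ATP synthase. Its RNAs come from mitochondrial DNA, but every one of its proteins is encoded in the nucleus, made in the cytosol and imported. Many of these proteins have a counterpart in the bacterial ribosome, and the others were gained in the mitochondrial lineage.

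Expression is given in RPKM, read numbers scaled by the length of the gene model and by the read total of the lane. The steps between low values gave estimates of 37775000 and 36150000 reads for the undifferentiated and 33060000 and 32025000 for the differentiated lanes. The labels were checked with marker genes. Pou5f1, the ES cell factor Oct4, stood at 692 RPKM before and 29.5 after, and Nanog at 140 and 2.96. The endoderm factors Gata4 and Gata6 went from 1.095 to 123 and from 1.01 to 52.1, and Col4a1, a basement membrane collagen, from 12.5 to 1755. All 6 ES markers were lower and all 8 extraembryonic endoderm markers higher past 2-fold. The summed level of the ES list was 1680 RPKM before and 109 after, and that of the endoderm list 41.7 and 4085. Of 7 fibroblast markers at 1 RPKM or more, 4 were higher past 2-fold, against 19.1% of all genes, and 2 were lower. These 7 summed to 31.0 and 228 RPKM, while Lum was near 0 in both libraries. Of 4 neural markers 1 was higher and 1 lower past 2-fold, with sums of 48.2 and 53.9 RPKM. Of 2 mesoderm markers at 1 RPKM or more 1 was higher past 2-fold, with sums of 1.40 and 11.0. The part of this change of cell type in the differences below was not tested, and in bulk RNA fewer cells of a type and less RNA per cell cannot be told apart.

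Most mitochondrial ribosomal protein genes were modestly lower in the differentiated library, and a few at each end departed far from the rest. Differences are log2 ratios of the differentiated to the undifferentiated level after 1 RPKM was added to each, a scale that understates those of weakly expressed genes. All 76 members stood at 1 RPKM or more in either library. Their median log2 ratio was -0.41, with a middle range from -0.60 to -0.11 and extremes of -2.87 and 1.39. The median of the 18019 genes at 1 RPKM or more was 0.12. Of the members, 58 (76.3%) had a ratio below 0, against 44.3% of those genes. Both differentiated lanes lay below both undifferentiated lanes for 55 members and above them for 13, against 37.1% and 47.4% of all genes. The summed level of the members went from 2930 to 2204 RPKM, to 75.2% of its former size.

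Past 2-fold, 7 members were lower, against 8.46% of all genes, and 3 were higher, against 19.1%, while 66 lay between. At 1.5-fold, 22 were lower, against 20.5% of all genes, and 6 were higher, against 31.6%. The share of members lower past 2-fold was thus near that of all genes, and the share of higher members was smaller. Among the 9705 genes at 10 RPKM or more, a level closer to that of the members, 9.44% were lower and 19.3% higher past 2-fold, and 24.5% and 29.6% at 1.5-fold. Of these genes 49.2% had a ratio below 0, their median was 0.02, and the lanes separated downwards in 44.3% and upwards in 45.4%.

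The subunit medians differed little, while a larger share of the small-subunit genes was lower. The 47 large-subunit genes had a median log2 ratio of -0.37 and 72.3% below 0, with 2 members lower and 1 higher past 2-fold. The 29 small-subunit genes had a median of -0.43 and 82.8% below 0, with 5 lower and 2 higher. Of all genes, 8.46% were lower past 2-fold and 19.1% higher. At 1.5-fold, 10 large-subunit and 12 small-subunit genes were lower, against 20.5% of all genes. The sums of the large and the small subunit went to 77.0% and 71.8% of the undifferentiated value. In lane 1 alone the medians were -0.35 and -0.37, and in lane 2 -0.46 and -0.44, so that the order of the subunits was not the same in both lanes.

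**Figure D1:**
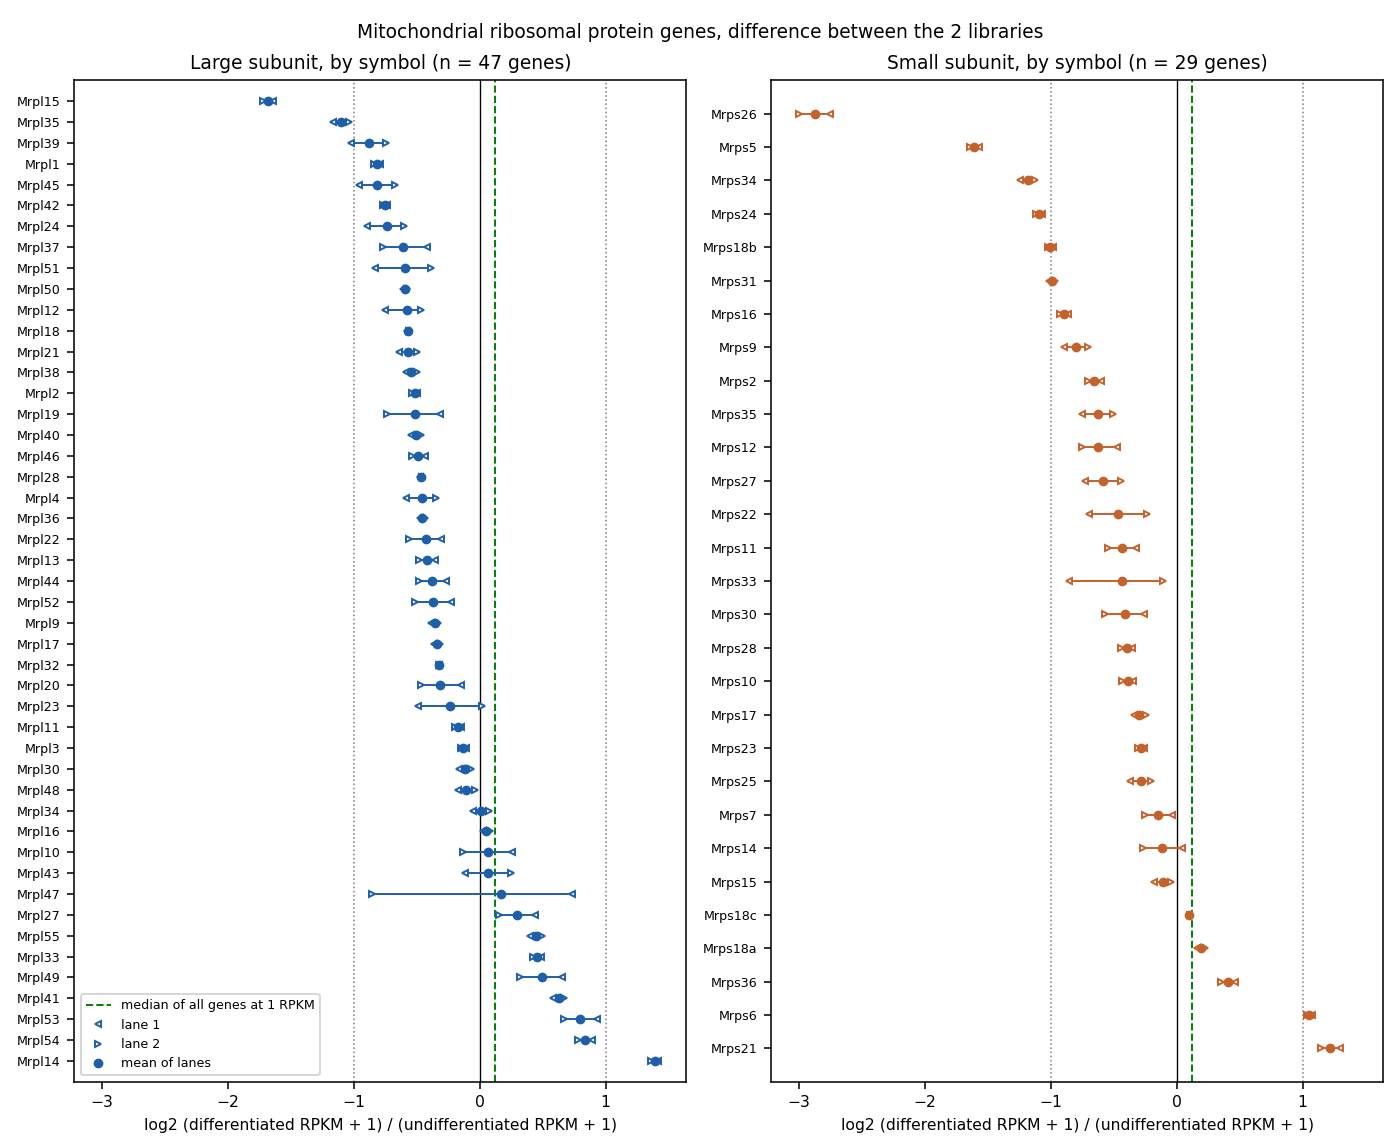
The log2 ratio of each member, large subunit on the left and small subunit on the right, with the mean of the lanes as a filled point and each lane as an open triangle. The dotted lines mark 2-fold, and the dashed line the median of all genes at 1 RPKM or more (0.12). Most points lie left of 0, with Mrps26 (-2.87) and Mrpl14 (1.39) at the extremes and Mrpl47 with its lanes on opposite sides of 0.

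The small-subunit gene Mrps26 showed the largest difference of all members. It encodes mS26, a protein without a bacterial counterpart, and lies on chromosome 2 (mm9, 130389478 to 130394431, plus strand). Its undifferentiated lanes read 29.0 and 30.8 RPKM and its differentiated lanes 3.47 and 2.99. Both differentiated lanes were thus far below both undifferentiated lanes, and the gene went from place 40 of 76 by level to the last place. The ratio of -2.87 is a 7.31-fold lower value, with an estimated 222 and 212 reads in the differentiated lanes. The 100 bases before its RefSeq start (GRCm38.p6, chr2:130563657-130563756, plus strand) are printed because it is the member with the strongest difference. Capitals mark the core CCGGAAG of sites for ETS factors, here on the reverse strand as CTTCCGG.

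Mrps26: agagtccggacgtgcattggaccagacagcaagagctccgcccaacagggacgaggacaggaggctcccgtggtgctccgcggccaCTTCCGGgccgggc

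A second small-subunit gene, Mrps5, encodes uS5m, whose bacterial counterpart lines the entrance of the messenger RNA channel and bears on decoding accuracy. Its lanes read 71.7 and 82.7 RPKM before and 23.5 and 25.9 after, a log2 ratio of -1.61. Mrps34, which encodes mS34, a mitochondrial protein needed for a stable small subunit, read 31.6 and 30.8 before and 12.8 and 13.6 after (-1.18). In both genes the lanes of the libraries did not overlap, and the gap between libraries was several times that between lanes. Both also differed in the make-up of their transcripts, described further on.

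Mrps24, for uS3m, the counterpart of the bacterial protein that lines the messenger RNA entry with S5, had 85.8 and 86.0 RPKM before and 40.5 and 39.0 after (-1.09). Mrps18b, for mS40, one of the relatives of bacterial S18, had 70.8 and 74.9 before and 35.4 and 36.4 after. At a log2 ratio of -1.002 it lay just past the 2-fold limit. Mrps31, for the mitochondria-specific mS31, was just short of it at -0.99, with 23.6 and 23.2 RPKM before and 11.2 and 11.4 after. The lanes separated the libraries in each of these genes.

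Between these and the higher members lay most of the subunit. Mrps16 (bS16m), Mrps9 (uS9m) and Mrps2 (uS2m), all with bacterial counterparts, had ratios of -0.89, -0.80 and -0.65. Mrps12, for uS12m of the decoding centre, had 27.2 and 33.8 RPKM before and 19.3 and 19.7 after (-0.62). Mrps27, for a pentatricopeptide repeat protein of the small subunit, stood at -0.59, and Mrps22 (mS22) at -0.47. Mrps7 (uS7m), Mrps14 (uS14m) and Mrps15 (uS15m) had ratios nearer 0, at -0.15, -0.12 and -0.11, and the lanes of Mrps14 overlapped between libraries.

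Only 2 small-subunit genes were higher past 2-fold, Mrps21 and Mrps6, and both encode counterparts of bacterial proteins. Mrps21, for bS21m, lies on chromosome 3 (mm9, 95666557 to 95675442, minus strand) and had 22.6 and 24.3 RPKM before and 57.0 and 54.8 after (1.22). It went from place 58 by level to place 3, the reverse of the path of Mrps26. Mrps6, for bS6m, had 13.2 and 13.4 before and 28.9 and 28.4 after (1.05). The higher level of Mrps6 sat with its RefSeq transcript form, which held 97.0% of the value before and 84.4% after. Slc5a3, a transporter gene within the same locus and on the same strand, was low, at 1.09 and 2.61 RPKM.

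The bases before the RefSeq start of Mrps21 (GRCm38.p6, chr3:95871515-95871614, minus strand) are shown beside those of Mrps26 because these genes went in opposite directions. Capitals mark a match on the reverse strand to the site of nuclear respiratory factor 1 (NRF1), searched as GCGCA and GCGC with any base between them.

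Mrps21: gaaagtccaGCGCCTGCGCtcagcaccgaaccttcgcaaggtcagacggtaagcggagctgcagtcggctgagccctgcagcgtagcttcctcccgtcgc

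Over the wider RefSeq window of 300 bases, both Mrps26 and Mrps21 held a match to the ETS and to the NRF1 letters. The same pair of motifs was therefore found before the member with the largest lower ratio and before one of the higher members.

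In the large subunit, Mrpl15 had the highest level of all members before differentiation. It encodes uL15m, the counterpart of bacterial L15, and lies on chromosome 1 (mm9, 4763279 to 4775820, minus strand). It had 140 and 145 RPKM before and 44.4 and 43.5 after, a log2 ratio of -1.68. Its place by level went from 1 to 11. All 5 of its transcript forms were lower, and the form holding most of the value made up 61.8% before and 57.6% after.

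Mrpl35, for bL35m, was the other large-subunit gene lower past 2-fold, with 47.7 and 43.5 RPKM before and 20.7 in each lane after (-1.10). It has 1 annotated transcript. After Mrpl15, the highest levels before were those of Mrpl52 (mL52) with 90.3 and 102 RPKM and Mrpl17 (bL17m) with 93.4 and 94.9. After differentiation Mrpl17, at 72.6 and 76.1, and Mrpl52, at 77.0 and 71.3, were the top genes, with lanes that overlapped each other. Mrps21 followed in the third place at a mean of 55.9. The RefSeq form of Mrpl52 held 5.26% of its value before and 3.88% after, so its rank rests on other annotated forms.

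**Figure D2:**
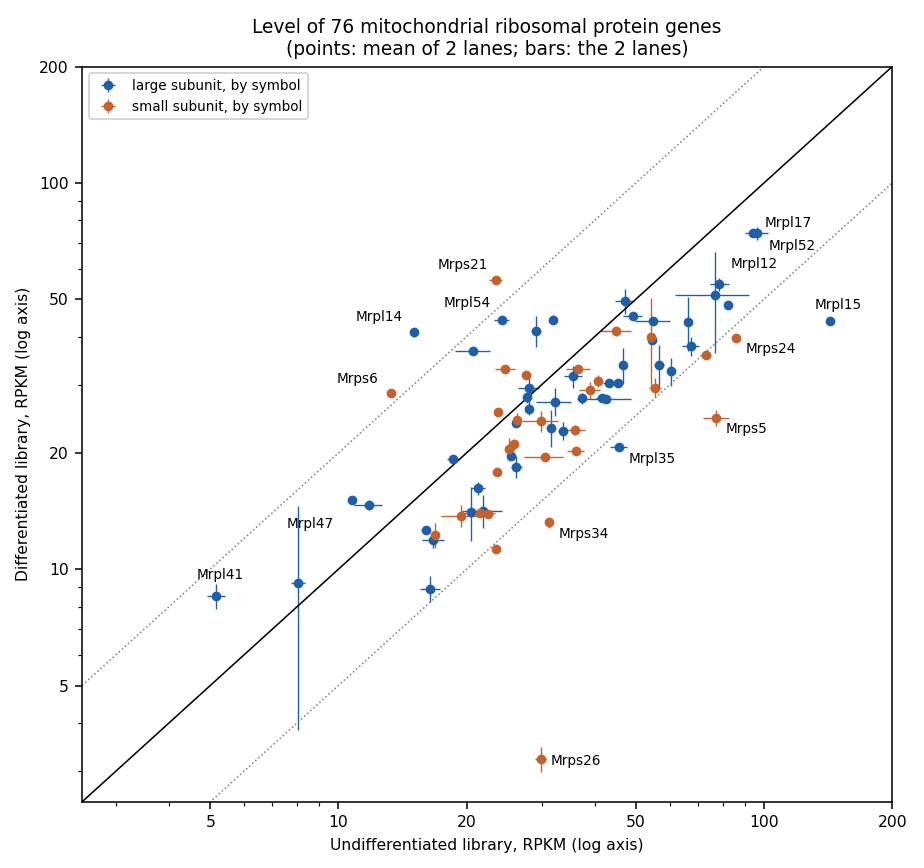
The level of each member in the undifferentiated (x axis) and the differentiated library (y axis), both in RPKM on log axes, with points at the lane means and bars spanning the lanes. The solid line marks equal levels and the dotted lines 2-fold. Most points lie a little under the solid line, Mrps26 lies far below it, and Mrpl14, Mrps21 and Mrps6 lie above the upper dotted line.

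At the functional centres of the large subunit the named genes had ratios of either sign, all under 2-fold in size. Of the proteins around the peptidyl transferase centre, where peptide bonds form, Mrpl2 (uL2m) had 74.6 and 82.5 RPKM before and 52.6 and 56.7 after (-0.52). Mrpl3 (uL3m) stood at -0.13, and Mrpl16 (uL16m), at 0.05, had lanes that overlapped between libraries. Mrpl27, for bL27m, whose bacterial counterpart reaches into that centre, was higher in both lanes, with 10.9 and 12.7 before and 15.1 and 14.2 after (0.30).

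Around the tunnel through which the new peptide leaves, Mrpl22 (uL22m) had a ratio of -0.43, Mrpl24 (uL24m) of -0.73 and Mrpl23 (uL23m) of -0.24. The lanes of Mrpl23 overlapped between the libraries. Mrpl45, for mL45, which binds the ribosome to the inner mitochondrial membrane at the tunnel's mouth, had 70.4 and 64.2 RPKM before and 35.7 and 40.0 after (-0.81). Mrpl39 (mL39), at -0.88, and Mrpl44, an RNase III-like protein (mL44), at -0.37, are also mitochondria-specific.

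The stalk that recruits translation factors includes Mrpl10 (uL10m), Mrpl11 (uL11m) and Mrpl12 (bL12m). Their ratios were 0.07, -0.17 and -0.57. The lanes of Mrpl12 read 61.7 and 92.0 RPKM before and 36.3 and 66.3 after, so that its libraries overlapped although both lane ratios were below 0. Its row overlaps an unnamed gene on the opposite strand by 2244 bases. That gene read 35.6 and 5.36 RPKM before and 21.4 and 1.19 after, with the lanes in the reverse order. The part of read assignment between these genes was not tested. Mrpl1, for uL1m of the stalk on the opposite flank, where the empty transfer RNA leaves, stood at -0.81.

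The central protuberance, which faces the small subunit, holds several mitochondria-specific proteins. Mrpl38, Mrpl40, Mrpl46 and Mrpl48 had ratios of -0.54, -0.50, -0.48 and -0.10. Mrpl18, for uL18m in the same place, had 45.8 and 45.2 RPKM before and 30.3 and 30.4 after (-0.57). In these 5 genes, which are not a full list of that place, both differentiated lanes were below both undifferentiated lanes. This held for 37.1% of all genes and 44.3% of those at 10 RPKM or more. Mrpl55 (bL31m), not among the 5, was higher, with 11.0 and 10.5 RPKM before and 14.8 and 15.3 after (0.45).

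Mrpl14 was the only large-subunit gene higher past 2-fold. It encodes uL14m, which lies at the interface with the small subunit and contacts the silencing factor Malsu1. Its lanes read 15.1 and 15.0 RPKM before and 42.1 and 39.9 after (1.39), without overlap. Most of that value, 12.6 of 15.0 RPKM before and 36.5 of 41.0 after, came from 1 short transcript form that begins downstream, at position 45832365 of chromosome 17 in mm9. The full-length RefSeq form went from 2.19 to 4.38 RPKM. The gene row also overlaps Tmem63b on the opposite strand by 584 bases, at its other end, and Tmem63b went from 14.5 to 188 RPKM. The library kit does not record strand, so reads in shared bases cannot be assigned to either gene.

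Mrpl54, Mrpl53 and Mrpl41 completed the upper end, all for mitochondria-specific proteins. Mrpl54 (mL54) had 23.2 and 25.2 RPKM before and 44.0 and 44.1 after (0.84). Mrpl53 (mL53) had 18.8 and 22.7 before and 36.8 and 36.7 after (0.80). Mrpl41 (mL41), the lowest member before differentiation, had 4.92 and 5.41 before and 7.87 and 9.17 after (0.63). In these genes the differentiated lanes lay above both undifferentiated lanes, at ratios below the 2-fold limit.

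Some symbols mislead about place. Structures put Mrps30 (mL65) and Mrps18a (mL66) in the large subunit, and Mrps36 is a component of the 2-oxoglutarate dehydrogenase complex and not of the ribosome. Mrps30 had 36.8 and 41.3 RPKM before and 30.6 and 27.6 after (-0.41). Mrps18a had 28.3 and 27.0 before and 31.8 and 31.7 after (0.19), and Mrps36 23.3 and 26.0 before and 32.4 and 33.4 after (0.40). With these genes placed by structure, the 26 small-subunit genes had a median of -0.45, with 88.5% below 0 and 12 lower at 1.5-fold. The 49 large-subunit genes kept a median of -0.37, with 71.4% below 0 and 10 lower at 1.5-fold.

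The S18 relatives gave an example of spread within a family. Mrps18b, at -1.002, Mrps18c (bS18m), at 0.10, and Mrps18a, at 0.19, share an ancestor, and the ratio of Mrps18b was more than 2-fold below those of the other two, which lay close together. Mrps18c had 23.7 RPKM in each lane before and 25.5 in each after.

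Proteins with a bacterial counterpart (48 genes) had a median ratio of -0.37 and those found in mitochondria alone (27 genes) of -0.48. The 9 mitochondria-specific small-subunit genes, Mrps22, Mrps23, Mrps25, Mrps26, Mrps27, Mrps31, Mrps33, Mrps34 and Mrps35, had a median of -0.59. All 9 had a ratio below 0, against 44.3% of all genes, and differentiated lanes below both undifferentiated lanes, against 37.1%. In Mrps33 this separation was narrow, with lane ratios of -0.85 and -0.11. The sum of the 9 genes went to 59.97% of its former size. Among the 18 mitochondria-specific large-subunit genes, 13 were below 0 and the median was -0.45.

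The members' levels were spread over a wide range in each library, from 5.16 to 143 RPKM before and from 3.23 to 74.4 after. Their median level was 30.8 RPKM before and 27.7 after. The coefficient of variation among the 76 genes was 0.625 before and 0.492 after. This was not shared by all classes, since among the 27 mitochondria-specific members it was 0.559 and 0.561, and among the 9 of the small subunit 0.356 and 0.578. Between the libraries the levels correlated with Spearman's rho of 0.68 over 76 genes, against 0.98 between the undifferentiated and 0.96 between the differentiated lanes. Genes are not independent replicates, and each ratio shares its undifferentiated value with the level. The level before and the log2 ratio had a rho of -0.49, which includes this shared term.

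For most members the lanes of a library differed little, with a median of 1.06-fold in each library. In 3 members, Mrpl47, Mrps33 and Mrpl12, they differed by over 1.5-fold in at least 1 library. Mrpl47 (uL29m) had 8.35 and 7.76 RPKM before but 14.6 and 3.84 after, and its lane ratios were 0.74 and -0.85. It overlaps the respiratory chain gene Ndufb5 by 394 bases on the opposite strand, which had 150 and 57.6 RPKM in the differentiated lanes, and Actl6a, which had 40.2 and 15.7. Mrps33 (mS33) had 54.1 and 54.3 before and 29.5 and 50.4 after. No direction can be read for Mrpl47 from these lanes.

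Transcript forms shifted in a small number of members. Among 63 members with several transcript forms and 5 RPKM in both libraries, 3 changed the share of a form by at least 30 percentage points, against 5.31% of the 6061 genes of that kind. At the level of promoters 2 of 36 members did so, against 4.54% of 4470 genes. The members were therefore near the background, and the median of the members' largest transcript share difference was 4.88 points.

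The largest shift was in Mrps34. Its RefSeq form, which ends at position 25033703 of chromosome 17 in mm9, went from 23.2 RPKM to 2.74, from 74.5% to 20.7% of the gene's value. A form that ends further downstream, at 25034447, went from 5.44 to 9.25 RPKM, from 17.4% to 70.0%. Both lanes showed the shift, by -53.9 and -54.2 points for the RefSeq form. The longer form runs into Nme3, on the same strand, and the locus lies within Mapk8ip3 on the opposite strand, which went from 14.3 to 29.5 RPKM.

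In Mrps25, for mS25, the values shifted between annotated promoters on chromosome 6. A promoter value is that of the annotated transcript forms beginning there and not a measured start. The upstream promoter (92133834 to 92134026) went from 22.4 to 10.9 RPKM and the downstream one (92125703 to 92125895) from 2.77 to 9.54. The downstream share thus went from 11.0% to 46.6%, with lane values of 3.59 and 1.95 RPKM before and 8.83 and 10.3 after. The gene as a whole had 25.2 and 20.5 RPKM (-0.28). Its row overlaps Nr2c2 on the opposite strand by 3536 bases, and Nr2c2 went from 35.5 to 6.58 RPKM. These bases lie in the RefSeq form of the upstream promoter and outside the downstream form, which spans 92124832 to 92125896. The part of read assignment between these genes in the shift was not tested.

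In Mrps5, a promoter at 127416177 to 127416216 of chromosome 2 had 19.9 and 27.4 RPKM before and was listed at 0 in both lanes after. It held 30.7% of the gene's value before, and its single transcript form spans 127416177 to 127421431. The RefSeq form of Mrps5 went from 28.01 to 7.98 RPKM, so the lower level of the gene was not confined to that promoter. At 20 points, Mrps35, Mrpl49 and Mrpl19 joined these genes for 6 in transcript shares, against 14% of genes, and Mrps35 for 3 in promoter shares, against 11.5%. In Mrps35 a downstream promoter went from 1.39% to 22.8%, and in Mrpl49 the second form went from 25.2% to 0. The lanes of Mrpl19 disagreed after differentiation, its RefSeq form reading 9.38 and 3.18 RPKM.

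**Figure D3:**
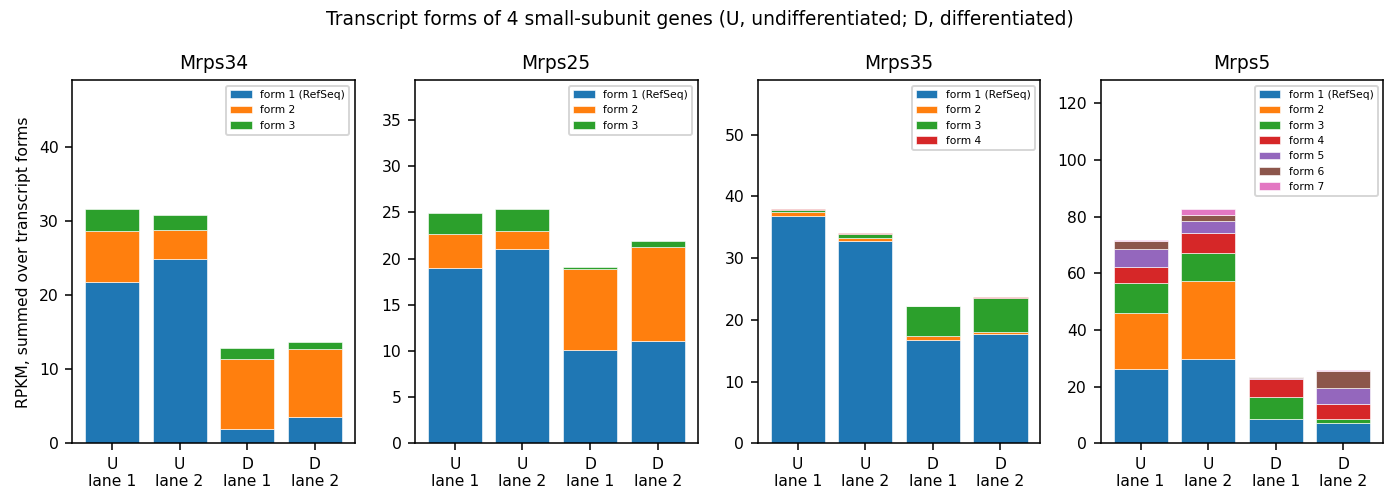
The level of each annotated transcript form of Mrps34, Mrps25, Mrps35 and Mrps5, stacked to the gene's RPKM, in the lanes of the undifferentiated (U) and differentiated (D) library. Form 1 is the RefSeq form. In Mrps34 form 1 fills most of the bar before (74.5%) and a small part after (20.7%), and in Mrps25 form 2 grows from 11.0% to 46.6%.

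The gene values are the sums over transcript forms in all 76 members, so a short form with few reads can weigh much. The 12 members with 1 transcript had a median ratio of -0.40, with 8 below 0, and those with several forms of -0.42. Of the 76 rows, 24 overlap a gene of at least 1 RPKM on the opposite strand. Without those 24, the medians were -0.37 for the large and -0.43 for the small subunit, with 5 genes lower and 2 higher past 2-fold.

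The ribosomal proteins whose symbols do not follow the Mrpl and Mrps pattern were also lower as deposited. All 7 such genes had a ratio below 0, against 44.3% of all genes, with a median of -0.43, and the lanes separated the libraries in 6. Under equal sums Aurkaip1 and Ict1 were above 0. Gadd45gip1, for mL64 of the large subunit, had 46.7 and 45.3 RPKM before and 8.52 and 7.85 after (-2.36), second in size to Mrps26. Chchd1, for mS37 of the small subunit, had 47.6 and 51.1 before and 16.8 and 21.1 after (-1.34). Dap3, the GTP-binding mS29, stood at -0.43 and Ptcd3, the pentatricopeptide repeat protein mS39, at -0.59. Mrp63, Aurkaip1 and Ict1, the last of these a peptidyl-tRNA hydrolase built into the ribosome, stood at -0.28, -0.21 and -0.11.

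Other lists of genes for protein synthesis and mitochondrial function set these values in context. The 79 cytosolic ribosomal protein genes had a median of -0.70, with 98.7% below 0. The median of the mitochondrial set was 0.29 above theirs, with a far wider spread. Rps18 (-1.01) and Rpl8 (-0.998) had the largest differences in the cytosolic list, and Rpl10 (0.37) was its 1 gene above 0. The 75 nuclear-encoded respiratory chain genes, whose complexes the mitochondrial ribosome helps to build, had a median of -0.13, and the members' median was 0.28 lower. The largest differences in that list were those of Ndufb5 (1.57) and Ndufa7 (-1.26), although the lanes of Ndufb5 disagreed, with ratios of 2.12 and 0.70.

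Among the partners of the mitochondrial ribosome, the 26 assembly genes had a median of -0.29, with 2 lower past 2-fold, a share near the 8.46% of all genes. These were Rbfa, which acts in maturation of the small subunit's RNA, from 39.6 to 17.7 RPKM (-1.12), and the GTPase gene Gtpbp10, from 24.8 to 11.8 (-1.01). The 19 mitochondrial transfer RNA synthetase genes had a median of -0.35, with Wars2 at 1.22. The 14 translation factor genes had a median of -0.14, and this median reversed in sign to 0.03 in lane 1 alone. In that list Mtrf1l stood at 0.85 and Mtif3 at -0.62. A list of 20 genes for import, chaperones and the mitochondrial matrix had a median of -0.38, with Phb at -1.02 and Tomm40 at -0.85.

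The genes for mitochondrial transcription and its regulators (18 of 19 at 1 RPKM or more) had a median of -0.35. The largest difference was that of Pprc1, a coactivator related to PGC-1, which went from 69.4 ± 5.13 to 23.6 ± 0.385 RPKM (-1.52). Esrra, for the nuclear receptor ERR alpha, went from 9.23 ± 0.666 to 23.2 ± 2.36 (1.24). Of the factors whose sites are examined below, Gabpa, the ETS-family subunit of GABP (also called NRF2), went from 24.8 to 11.4 RPKM (-1.05). Nrf1 stood at -0.35 and Yy1, a zinc finger factor, at -0.22.

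**Figure D4:**
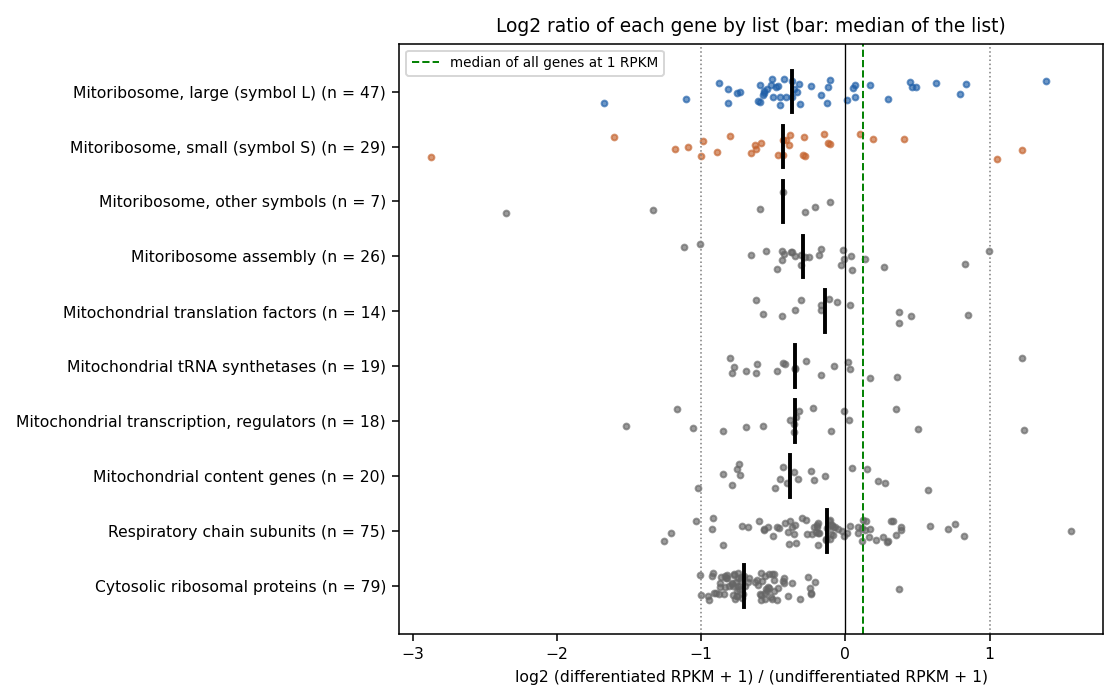
The log2 ratio of every gene at 1 RPKM or more in the mitochondrial ribosomal set and in the comparison lists, with 1 point per gene and a black bar at the median. The dotted lines mark 2-fold and the dashed line the median of all genes at 1 RPKM or more. The cytosolic ribosomal proteins form a tight group around -0.70, while the mitochondrial ribosomal proteins spread from -2.87 to 1.39 around -0.37 and -0.43.

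The scale of the libraries moved every ratio. The authors' values summed to 984992 and 994218 RPKM in the undifferentiated and 840410 and 832428 in the differentiated lanes. Centring on the median gene, a trimmed mean and the upper quartile applied log2 factors of -0.12, -0.17 and -0.13 to the differentiated values, and equal sums a factor of 0.24. Under the first 3, 63 members were below 0, against 50%, 50.8% and 49.3% of all genes. In each of these 10 were lower past 2-fold, near the 11%, 11.4% and 10.5% of all genes, and 2 were higher. Under equal sums 51 were below 0, against 35.5% of all genes, 3 were lower, against 6%, and 5 were higher. The share of all genes higher past 2-fold was 19.1% as deposited and was not computed under the scalings. The counts of higher members under the scalings therefore have no background here. The medians of both subunits stayed below 0 under all 4 scalings, and stayed between those of the cytosolic ribosomal proteins and the respiratory chain, whose median changed sign to 0.11 under equal sums. Members with ratios close to 0, such as Mrps18c (0.10) and Mrps14 (-0.12), change sign under at least 1 of them.

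**Figure D5:**
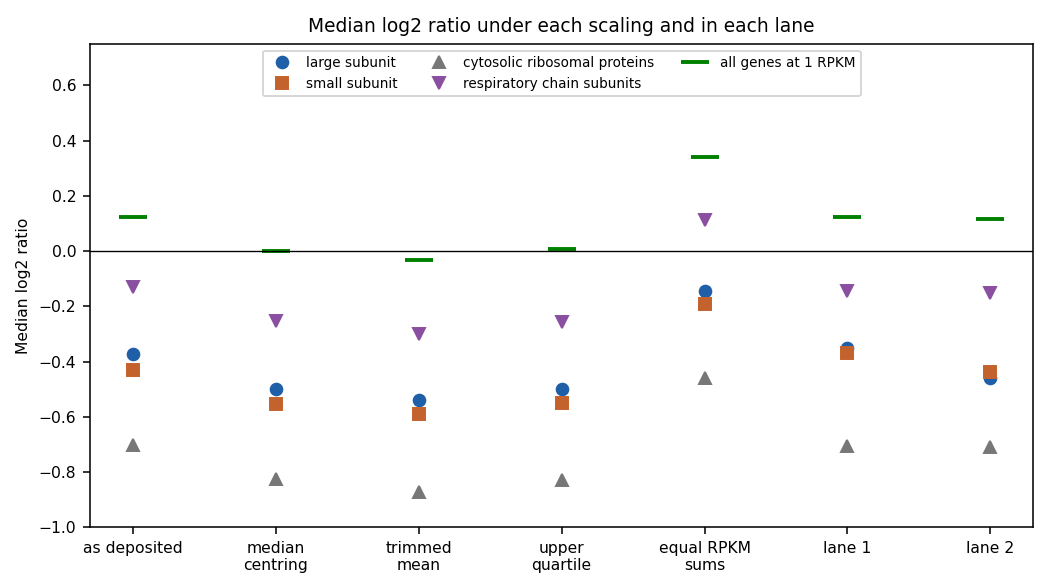
The median log2 ratio of the large and small subunit, the cytosolic ribosomal proteins, the respiratory chain and all genes at 1 RPKM or more, as deposited, under 4 scalings and in each lane alone. Every list moves with the scaling, and the order of the 4 levels from cytosolic ribosomal proteins up to all genes is kept in each column, with the subunits side by side.

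The members lie on 17 chromosomes, with the most on chromosomes 11 (10 genes), 17 (8) and 6 (7). Many have a close neighbour on the opposite strand. A gene on the other strand starts within 1000 bases of the start of 32 members (42.1%), against 20.8% of 9631 other genes at 10 RPKM or more. Within 500 bases this held for 27 members (35.5%), against 17.2%. In 16 distinct pairs the neighbour reached 10 RPKM, and in 10 of these it had the same sign of ratio as the member. Without Mrpl47, whose lanes disagree, this held for 9 of 15. The share of same-sign pairs among other genes was not computed. These counts therefore have no background and are not read as a result about the members.

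Several of these neighbours also serve mitochondria or protein synthesis. Mrps12 starts 148 bases from Sars2, for the mitochondrial seryl-tRNA synthetase, which went from 10.1 to 7.69 RPKM (-0.35) beside -0.62 for Mrps12. Mrps27 starts 108 bases from Ptcd2, a mitochondrial RNA-binding protein, which went from 19.3 to 10.2 (-0.86) beside -0.59. Mrpl43 starts within 750 bases of Peo1, for the mitochondrial DNA helicase, and both differed little (0.07 and 0.03).

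Opposite signs occurred too. Mrpl49 starts 130 bases from Fau, for a cytosolic ribosomal protein. Mrpl49 went from 29.1 to 41.4 RPKM (0.49), and Fau from 803 to 535 (-0.59). At its other end Mrpl49 overlaps Syvn1 on the opposite strand by 89 bases, and Syvn1 went from 8.53 to 56.4 RPKM. Reads in those shared bases cannot be assigned to either gene. Mrps18b starts 45 bases from Ppp1r10, for a regulator of protein phosphatase, which had 37.97 and 38.07 RPKM while Mrps18b went from 72.9 to 35.9. By contrast, Mrpl18 and Tcp1, for a subunit of the cytosolic chaperonin, start 16 bases apart and had ratios of the same sign, -0.57 and -0.49.

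Mrpl46 of the large subunit and Mrps11 of the small subunit are neighbours of each other on chromosome 7. Mrpl46 went from 26.9 and 25.4 RPKM to 19.6 and 17.2 (-0.48), and Mrps11, for uS11m, from 16.7 and 17.1 to 13.2 and 11.4 (-0.43). In the deposited mm9 models, which include longer forms, their rows overlap. Between their RefSeq starts lie 41 bases (GRCm38.p6, chr7:78783090-78783130, plus strand), shown because this run separates genes for both subunits. None of the ETS, NRF1 or YY1 letters searched here was found in it.

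Mrpl46 and Mrps11: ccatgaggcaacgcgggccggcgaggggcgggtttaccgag

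The RefSeq promoter table of GRCm38.p6, from 250 bases before to 50 after each start, matched 67 of the 76 members with 73 promoters. Mrpl4, Mrpl13, Mrpl15, Mrpl19, Mrpl38, Mrpl54, Mrps28, Mrps34 and Mrps35 were not matched. Motifs were searched on both strands as CCGGAAG (ETS factors), GCGCA and GCGC with any base between them (NRF1), AAGATGGC (YY1), CCAAT and TATAAA. The ETS and YY1 letters can share bases in 1 site, since the former end in the AAG with which the latter begin.

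The ETS letters were found in 24 member promoters (32.9%), against 8.86% of all 32851 promoters and 19.3% of the 6835 promoters of other genes at 10 RPKM or more. The YY1 letters were found in 12 (16.4%), against 2.75% and 5.03%. The NRF1 letters were also found in 12 (16.4%), against 4.60% and 11.4%. At least 1 of these was present in 41 (56.2%), against 14.7% and 31.7%. The shares for ETS and YY1 letters were thus larger in members than in other expressed genes, and that of the CCAAT box was close, at 41.1% against 38.2%. TATAAA was found in 6.85% of member promoters, in 7.02% of those of other genes at 10 RPKM or more and in 13.6% of all promoters.

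Of 28 ETS matches in member promoters, 25 (89.3%) lay between 100 bases before and 50 after the start, against 75.3% in other genes at 10 RPKM or more. The members with any of the ETS, NRF1 or YY1 letters had a median ratio of -0.43, and those without of -0.31. Taken singly, the medians with and without were -0.35 and -0.39 for ETS, -0.37 and -0.39 for NRF1, and -0.52 and -0.36 for YY1, so the sign of the difference was not the same for all 3. The promoters of Mrpl53, Mrpl43, Mrps27 and Mrpl45 are printed to show the spacing of these letters, 100 bases up to the start in each, with the match in capitals. Mrpl53 and Mrpl43 each hold a pair of ETS matches, Mrps27 holds 1, and Mrpl45 holds an NRF1 match. They lie at chr6:83109008-83109107 (plus strand), chr19:45006443-45006542 (minus strand), chr13:99344686-99344785 (plus strand) and chr11:97315616-97315715 (plus strand) of GRCm38.p6.

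Mrpl53: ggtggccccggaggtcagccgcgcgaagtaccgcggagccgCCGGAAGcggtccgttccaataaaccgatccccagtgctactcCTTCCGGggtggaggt

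Mrpl43: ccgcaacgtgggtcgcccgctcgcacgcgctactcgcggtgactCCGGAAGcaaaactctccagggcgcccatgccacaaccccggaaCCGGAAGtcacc

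Mrps27: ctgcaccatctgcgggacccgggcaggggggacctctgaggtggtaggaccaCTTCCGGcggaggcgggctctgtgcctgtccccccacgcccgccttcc

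Mrpl45: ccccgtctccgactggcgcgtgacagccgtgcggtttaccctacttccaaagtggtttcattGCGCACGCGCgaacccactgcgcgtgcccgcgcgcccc

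The first of the paired ETS matches begins 59 bases before the start in Mrpl53 and 56 in Mrpl43, and the second 16 and 12 bases before it. These genes had ratios of 0.80 and 0.07, Mrps27 of -0.59 and Mrpl45 of -0.81, so promoters with the same letters stood before genes with ratios of either sign. A match is a run of letters and not a measured binding site.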

How the data were processed

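Per the labels' protocols, libraries were prepared from 5 µg of total RNA with an mRNA kit, with fragments near 250 bp, and sequenced single-end over 36 bp. The authors deposited tables for 34376 genes, 55830 promoters and 83402 transcripts, with RPKM values for each lane and the mean of both lanes. The tables name no unit. RPKM was read from the values, since value times length mostly fell on whole reads (81.9% to 82.3% within 5% of a read) and column sums differed. Build mm9 is given in the submitters' processing notes, and starts are printed counted from 1. The sources used here do not name the aligner, the counting program or the annotation.

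Ratios used a pseudocount of 1 RPKM and genes at 1 RPKM or more in either library, with Python 3.11.15, numpy 2.4.6 and pandas 2.3.3. A check on simulated data covered only the trimmed-mean factor and the recovery of set log2 ratios. With 1 library per group there are no p-values. Among 69 members whose length could be assigned, lanes held 144 to 18222 reads (median 1072), a counting error of 8.33% at the lowest and 3.05% at the median. Promoter or transcript shares were compared in genes with at least 5 RPKM in both libraries, at 30 points. Members, lists and motifs were chosen with earlier results of these data known. Full lane values go to the 6 members at each end, those past 2-fold, the 3 highest in each library, those with discordant lanes and those whose place differs from their symbol. Of each list, the 2 genes with the largest ratios are named, except 1 that is not reported here. Other genes and members were named by role, as neighbours, or after their values were seen. The alternatives were other pseudocounts, floors, folds, lanes, scalings and subsets of members.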

Additional observations from a re-analysis of the deposited data

How the results depend on the processing

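The large-subunit median (-0.37) was -0.46 in lane 2, -0.50 under median centring, -0.54 under the trimmed mean, -0.50 under the upper quartile, -0.14 under equal sums and -0.0793 in members with 1 transcript. The small-subunit median (-0.43) was -0.37 with a pseudocount of 5, -0.37 in lane 1, -0.55 under median centring, -0.59 under the trimmed mean, -0.55 under the upper quartile, -0.19 under equal sums and -0.50 in members with 1 transcript. Of the 7 members lower past 2-fold, a pseudocount of 5 gave 4, equal sums 3, a fold of 1.5 gave 22 and the 12 members with 1 transcript gave 1. Of the 3 higher, equal sums gave 5, a fold of 1.5 gave 6 and members with 1 transcript 0. Of those 12 members, 8 were below 0. In lane 1 the members' median was 0.35 above that of the cytosolic ribosomal proteins and differed from the respiratory chain's by -0.21, 1 member passed the promoter share limit, and the median of the translation factors reversed to 0.0334. That median was 0.0510, and that of the respiratory chain 0.11, under equal sums. At 20 points 6 members differed in transcript shares. The causes were not tested, beyond the fewer genes in the 1-transcript subset and the wider limits. The subset without members overlapped on the opposite strand was added after the data were seen. No paired analysis was possible because each group has 1 library. Lanes cover sequencing error only, so no value here carries an error between cultures.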
